A study of Mus musculus with 14 samples.

Results

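The S100 proteins are a family of small calcium sensors, and 9 of their mouse genes were followed here through corneal stroma and cells grown from it: S100a1, S100a4, S100a6, S100a8, S100a9, S100a10, S100a11, S100a13 and S100b. Members were every probe set whose platform annotation gave 1 of these symbols and no other, which yielded 14 of the 12488 probe sets and 8 of the 8251 genes on an Affymetrix expression array. S100a11 had no probe set of its own, and the 1 probe set that names it also names Gm12854 and S100a11-ps, both pseudogenes in RefSeq. Of the 14 probe sets, 11 passed the filter on low signal, which left 7 genes in the tests. S100b was left out there.

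The series held 14 arrays in 5 groups, all of CD-1 mice, an outbred stock. Myofibroblast cultures (3 arrays) were primary stromal cells of 7 to 8 week old mice grown with 10% fetal bovine serum and 10 ng/ml TGF-beta 1, fibroblast cultures (3 arrays) were grown with 10% fetal bovine serum alone, and keratocyte cultures (3 arrays) with 1% platelet-poor horse serum. Adult stroma (3 arrays) was dissected from mice of 7 to 8 weeks and P10 stroma (2 arrays) from mice of postnatal day 10. All cultures used DMEM, and every group was measured from total RNA. The labels call the arrays of a group replicates without saying whether they were separate animals or cultures, so p-values measure only the spread between these samples.

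An S100 protein binds calcium through a pair of EF-hand loops, opens a hydrophobic face and docks on a target protein. S100a10 is the exception that no longer binds calcium and instead stays paired with annexin A2 at the plasma membrane. S100a4 is widely used as a fibroblast marker and binds non-muscle myosin, S100a6 binds the calcyclin-binding protein, S100a13 takes part in the release of FGF1, and S100a8 and S100a9 form the heterodimer calprotectin of neutrophils. S100a1 is best known from heart muscle, and S100b from glia and Schwann cells.

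Most of these genes lie on 1 chromosome. In RefSeq's GRCm38.p6 annotation 8 of the 9 genes stood on chromosome 3. Counted among S100 genes only, their order was S100a1, S100a13, S100a4, S100a6, S100a8, S100a9, S100a11 and S100a10. S100a14, S100a16, S100a3 and S100a2 lay between S100a13 and S100a4, and S100a5 between S100a4 and S100a6. S100a11 stood apart from S100a9: the 150 bases upstream of their starts begin at chr3:93520346 and chr3:90695722. S100b lay on chromosome 10. The signals of the close neighbours S100a4 and S100a6 differed in pattern, with S100a6 near the top of the signal range of the arrays. Their start-site sequences are shown beside those of S100a13 and S100a9. RefSeq's promoter table held 8 of the 9 genes, without S100a10. Each line below gives the 150 bases upstream of the start on the gene's own strand, from chr3:90603620-90603769 (plus strand) for S100a4, chr3:90514285-90514434 (plus) for S100a13, chr3:90612744-90612893 (plus) for S100a6 and chr3:90695722-90695871 (minus) for S100a9, all of GRCm38.p6, with a TATA box (TATAAA) in capitals.
S100a4: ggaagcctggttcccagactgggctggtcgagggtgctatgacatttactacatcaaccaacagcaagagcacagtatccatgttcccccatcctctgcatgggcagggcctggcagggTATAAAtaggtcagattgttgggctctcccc
S100a13: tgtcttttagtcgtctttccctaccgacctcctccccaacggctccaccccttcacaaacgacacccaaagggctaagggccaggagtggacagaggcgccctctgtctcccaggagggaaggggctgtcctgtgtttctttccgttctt
S100a6: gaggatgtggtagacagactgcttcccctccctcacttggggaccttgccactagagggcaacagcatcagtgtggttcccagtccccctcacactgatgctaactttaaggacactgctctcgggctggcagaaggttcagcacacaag
S100a9: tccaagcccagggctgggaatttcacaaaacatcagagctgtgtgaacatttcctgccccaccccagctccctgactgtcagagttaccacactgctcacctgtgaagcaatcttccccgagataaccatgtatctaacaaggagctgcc
Among 4 motifs searched on both strands in 250 bases upstream, S100a4 held TATAAA, beginning 31 bases before the start. The TATA box occurred in 12.4% of all 32851 windows of that length. S100a13 held no TATA box and none of the other 3 motifs, which were the GC box GGGCGG (in 32.7% of windows), the AP-1 motif TGANTCA (6.75%) and the CCAAT box (33.8%). S100a6 held CCAAT on the minus strand beginning 228 bases upstream, and S100a9 held GGGCGG beginning 223 bases upstream, both outside the stretch shown. The windows of S100a1 and S100a13 upstream of their starts overlapped by 104 bases on opposite strands, so these genes start close together and run apart. These are letters found in a window, not shown to be sites.

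By their representing probe sets, S100a4 and S100a13 were higher and S100a10 was lower in all 3 kinds of culture than in adult stroma. The other tested probe sets of S100a13 and S100a10 did not all follow, as given below. S100a6 was bright in all groups and passed in no comparison. S100a9 was the only member whose highest group mean was in P10 stroma. In keratocyte cultures 3 of the 7 tested genes rose against adult stroma (S100a1, S100a4, S100a13) and 1 fell (S100a10). These calls are read against a background of 21.8% of all 10370 probe sets that rose and 9.25% that fell. In fibroblast cultures 2 rose (S100a4, S100a13) and S100a10 fell, against 18.4% and 12.3% of all probe sets. In myofibroblast cultures 3 rose (S100a4, S100a9, S100a13) and S100a10 fell, against 17.5% and 15.5%. The same shares are the background for counts of other gene lists against adult stroma below. The median log2 difference of the 7 genes was 0.29 in myofibroblast, 0.61 in fibroblast and 0.38 in keratocyte cultures. The medians over all probe sets were -0.01, 0.04 and 0.12. In the same order, the medians of the 7 genes are the values of S100a1, S100a9 and S100a8. None of these passed there (limma adjusted p = 0.517, 0.252 and 0.116). S100a8 on every array, and S100a1 on every stroma array, was below the background level of signal given below. No shift of the family is therefore read from these medians. All 3 comparisons share the same adult arrays. Differences are log2 differences of signal + 16 from limma, a change passed at a Benjamini-Hochberg adjusted p below 0.05 over all probe sets, and in bulk samples fewer cells of a type and less RNA per cell cannot be told apart.

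**Figure D1:**
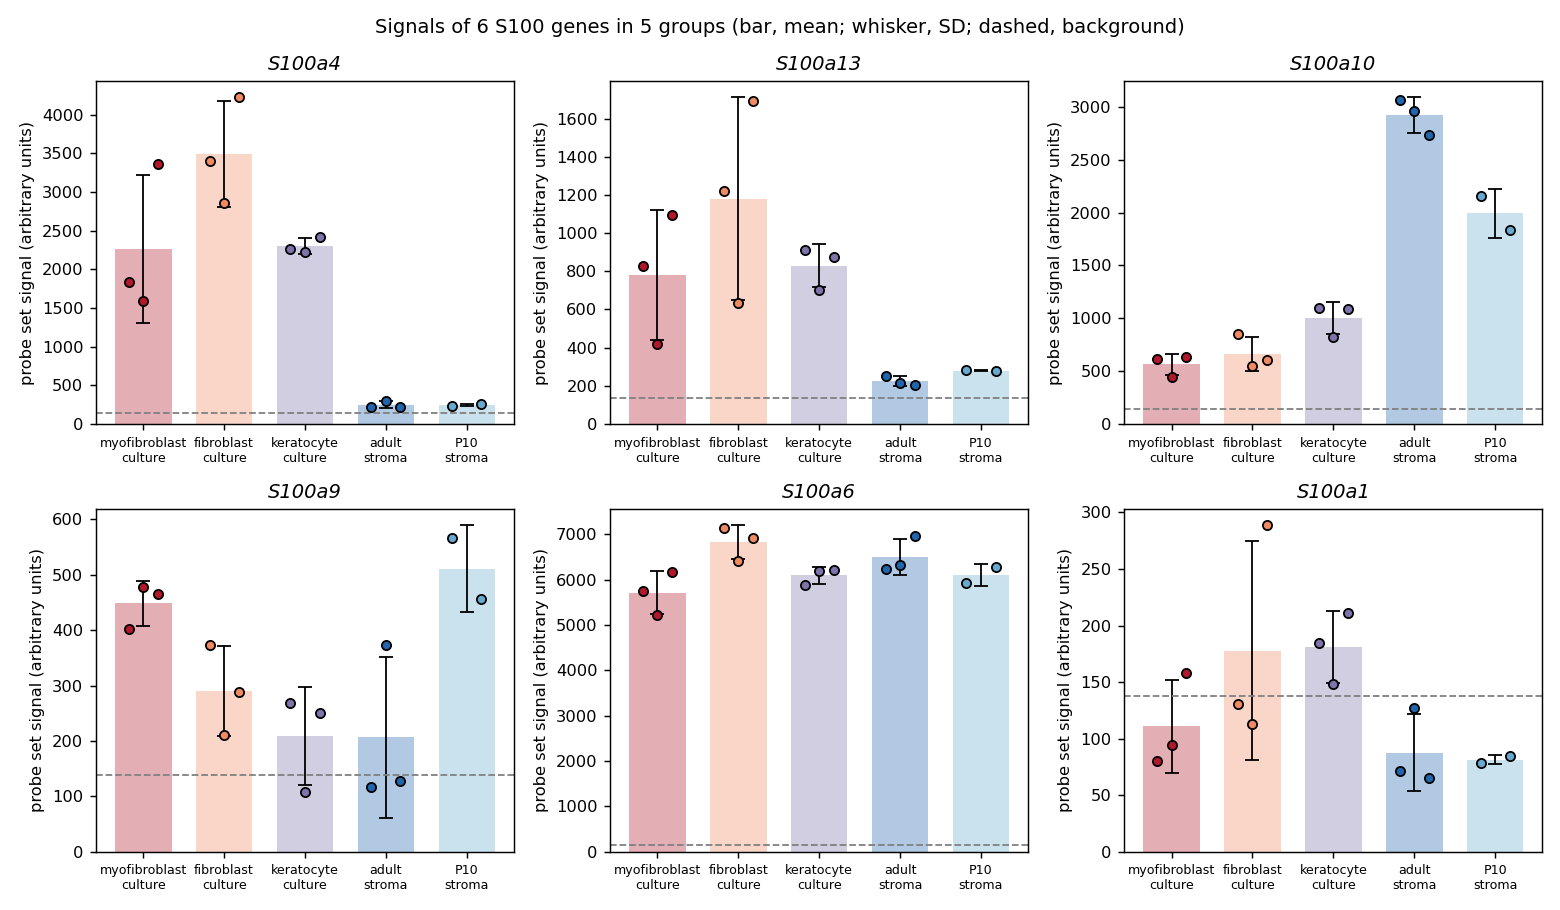
Signal of the representing probe set of 6 S100 genes (vertical axis, arbitrary units, a scale per panel) in 5 groups along the horizontal axis. Points are arrays, bars are group means with the SD, and the dashed line is the background level of 137.7; S100a4 lies between 1590 and 4226 in the 9 culture arrays and between 225.0 and 298.8 in the 5 stroma arrays.

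Signals are read against a background level of 137.7, the 95th percentile of 19 bacterial and yeast control probe sets over the arrays, so a probe set below it could not be told from control spots. Each array's median signal lay between 102.0 and 135.6. The dissected stroma carried RNA of other eye tissues. Krt12, a keratin specific to corneal epithelial cells, read 227.3 to 325.0 in the cultures, against 6773 to 7725 in adult stroma and 6554 to 7228 in P10 stroma. Of 10 retina markers 8 to 10 fell in each kind of culture against adult stroma, with a sum of 386 to 566 in the cultures and 1442 to 4621 in adult stroma. Of 8 lens markers 4 to 5 fell and 1 rose, with a sum of 1270 to 2747 in the cultures and 5744 to 8669 in adult stroma. Their part in the S100 differences was not tested. Acta2, whose smooth muscle actin is typical of contractile myofibroblasts, read 2932 to 3061 in myofibroblast cultures and as high in keratocyte cultures, at 3066 to 3347. Kera, which encodes the keratocyte proteoglycan keratocan, averaged 165 ± 150 in keratocyte cultures and 302.8 ± 112 in adult stroma (SD, n = 3 each). Of 10 keratocyte markers, 5 rose and 1 fell in keratocyte cultures, 3 rose and 3 fell in fibroblast cultures and 3 rose and 4 fell in myofibroblast cultures, with median log2 differences of 0.73, 0.15 and -0.49. The 3'/5' signal ratio of Actb, a sign of RNA integrity, was 1.06 to 1.20 in the cultures, 1.49 to 4.05 in adult stroma and 1.44 to 1.47 in P10 stroma, and its part in the differences between culture and stroma was not tested. The calls of S100a4, S100a13 and S100a10 in the cultures held on leaving out any single array.

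S100a4 showed the widest separation. Its signals were 1839, 1590 and 3359 in myofibroblast cultures, 3405, 2858 and 4226 in fibroblast cultures and 2259, 2219 and 2419 in keratocyte cultures. Adult stroma had 225.0, 298.8 and 225.4, and P10 stroma 232.5 and 254.2. Every culture array was far above every stroma array, and the 2 stroma ages overlapped. Against adult stroma the log2 difference was 3.03 in myofibroblast (SE 0.237, limma adjusted p = 2.16e-07), 3.72 in fibroblast (SE 0.237, adjusted p = 2.66e-08) and 3.13 in keratocyte cultures (SE 0.237, adjusted p = 1.76e-07). On the signal + 16 scale these are factors of 8.19, 13.2 and 8.78. The call held in every alternative that was run, with log2 differences of 2.71 to 3.30 in myofibroblast, 3.49 to 3.85 in fibroblast and 2.91 to 3.29 in keratocyte cultures.

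Fibroblast cultures ranked first for S100a4, at 3496 ± 689 against 2299 ± 106 in keratocyte cultures (SD, n = 3 each). All 3 fibroblast arrays lay above all 3 keratocyte arrays, yet the difference of 0.58 did not pass (95% interval 0.08 to 1.09, limma adjusted p = 0.464). Keratocyte and myofibroblast cultures overlapped, and so did adult and P10 stroma, where the difference of 0.02 had an interval of -0.54 to 0.59 (limma adjusted p = 0.987).

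Marker lists were read beside these differences. Of 16 fibroblast and myofibroblast markers, 13 rose in each kind of culture against adult stroma, and their summed signal was 24468 to 34042 over the culture arrays and 6431 to 7331 in adult stroma. P10 stroma lay between, with a sum of 13824 to 15034, and its S100a4 overlapped that of adult stroma. Macrophages can also express S100a4, and of 18 macrophage markers 3 rose and 4 fell in myofibroblast cultures, 10 rose and 1 fell in fibroblast cultures, and 12 rose and 0 fell in keratocyte cultures. The shares of all probe sets that rose and fell were 17.5% and 15.5%, 18.4% and 12.3%, and 21.8% and 9.25%. The macrophage sum was 1865 to 3024 in myofibroblast cultures, 2138 to 4285 in fibroblast cultures, 4907 to 6047 in keratocyte cultures and 1553 to 2107 in adult stroma, and Ptprc, the pan-leukocyte gene, had means of 145 to 177 in all groups. The macrophage sum of keratocyte cultures stood above that of myofibroblast cultures on every array, and S100a4 overlapped between them. The part of either list in the S100a4 difference was not tested.

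S100a13 followed S100a4 at a lower signal of its own probe set. It had 828.6, 417.2 and 1097 in myofibroblast cultures, 1218, 633.3 and 1691 in fibroblast cultures and 912.8, 702.7 and 873.7 in keratocyte cultures. Adult stroma had 253.0, 214.8 and 204.4, and P10 stroma 281.5 and 276.6. No culture array overlapped with stroma, and the 3 kinds of culture overlapped among themselves. The log2 difference from adult stroma was 1.63 in myofibroblast (SE 0.34, limma adjusted p = 0.00194), 2.21 in fibroblast (adjusted p = 0.000173) and 1.81 in keratocyte cultures (adjusted p = 0.000929).

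Its 4 probe sets did not all behave alike. A second one gave log2 differences of 1.45, 2.17 and 1.28 for the same 3 comparisons (limma adjusted p = 0.000176, 4.1e-06 and 0.00055), but it was below background on all 5 stroma arrays, with an adult mean of 125, so the size of these differences is a bound. Another, at 157.0 to 366.1 over the 14 arrays, gave 0.17, 0.30 and 0.001, none of which passed (limma adjusted p = 0.583, 0.329 and 0.998). The last had signals of 15.2 to 36.6 and was not tested. Between adult and P10 stroma the difference of -0.30 did not pass, although the arrays did not overlap (limma adjusted p = 0.809). Those other 2 tested probe sets gave 0.38 and 0.29 there, so no direction was settled.

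S100a10, the annexin A2 partner, went the other way. Its signals were 612.3, 445.1 and 632.2 in myofibroblast cultures, 849.4, 544.9 and 602.6 in fibroblast cultures and 1095, 827.6 and 1086 in keratocyte cultures. Adult stroma had 3063, 2964 and 2732, and P10 stroma 2159 and 1831. Adult stroma was highest, P10 stroma next without overlap, then keratocyte cultures without overlap, and fibroblast and myofibroblast cultures overlapped at the low end. Against adult stroma it fell by 2.36 in myofibroblast (SE 0.191, limma adjusted p = 3.23e-07), by 2.13 in fibroblast (adjusted p = 9.41e-07) and by 1.54 in keratocyte cultures (adjusted p = 2.56e-05). These are factors of 5.12, 4.38 and 2.90 on the signal + 16 scale. A second probe set of the gene stayed between 45.1 and 128.1, below background on all 14 arrays, and passed in none of the comparisons.

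Epithelial cells also express S100a10, and the marker genes of corneal epithelium moved the same way. Of 26 epithelial markers tested, 22 fell in myofibroblast, 22 in fibroblast and 23 in keratocyte cultures, with 1 rising in each. The summed signal of the 27 on the array was 2072 to 2359 in the cultures, against 34279 to 41377 in adult stroma. P10 stroma had a sum of 35722 to 36368, within the adult range, and its 2 S100a10 signals lay below all 3 adult ones. The part of epithelial RNA in these differences was not tested.

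**Figure D2:**
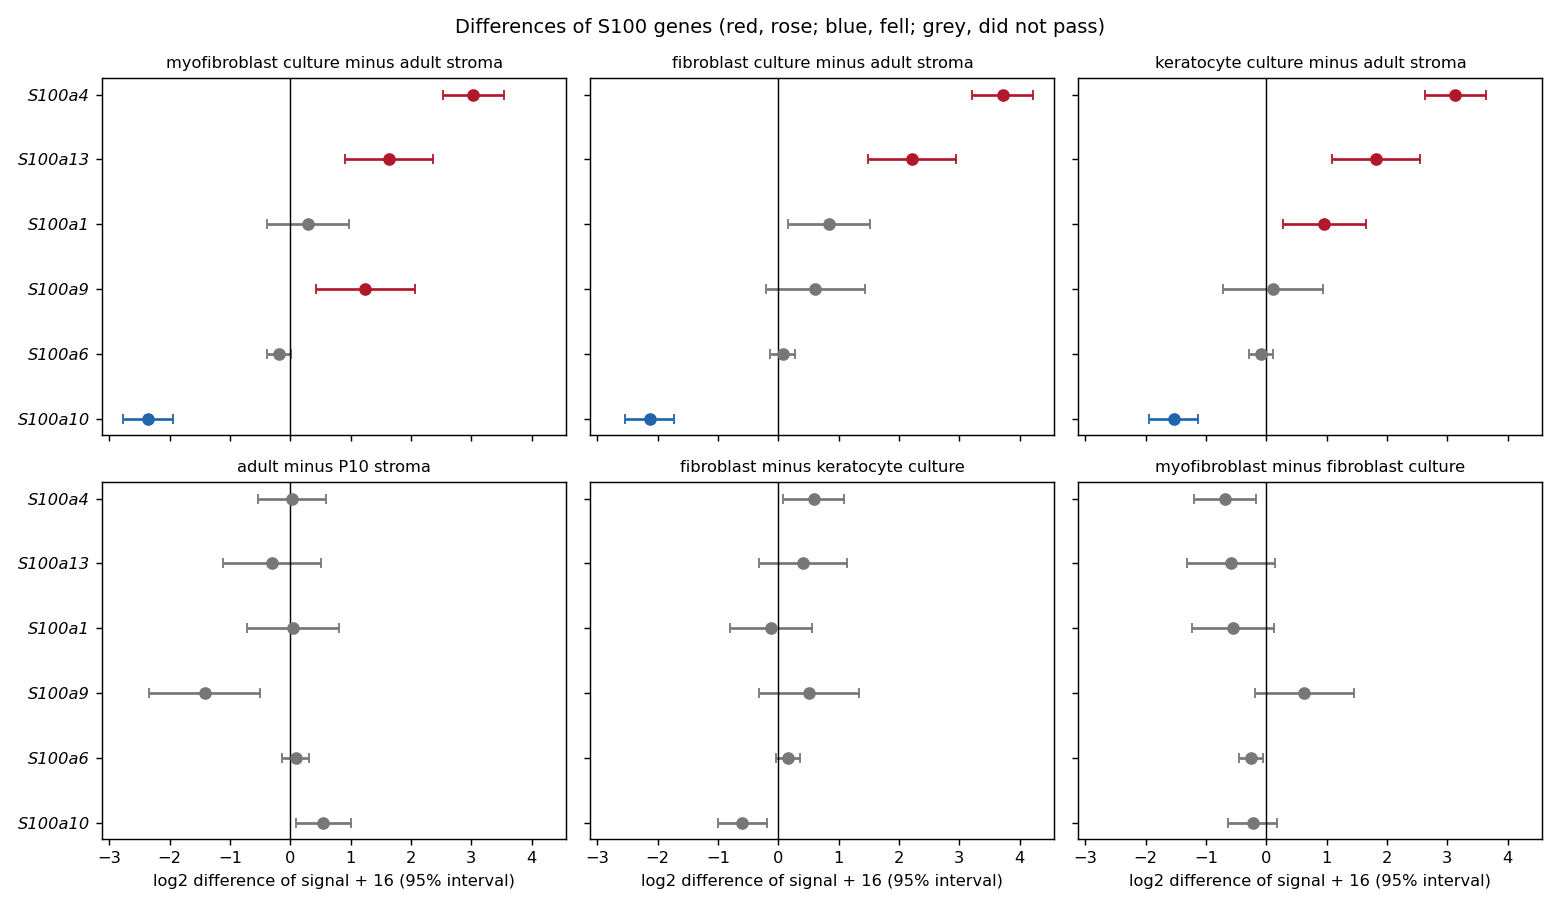
Log2 differences of signal + 16 (horizontal axis, with 95% intervals from limma) for the representing probe sets of 6 S100 genes (rows) in 6 comparisons (panels). Red marks genes that rose, blue genes that fell and grey genes that did not pass: S100a4 and S100a13 are red and S100a10 is blue in all 3 culture panels, and no gene passes in the lower row.

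The annexins are calcium-dependent membrane binders, several of which dock on S100 dimers. Of 8 annexin genes tested, 3 rose and 3 fell in myofibroblast and in fibroblast cultures, and 3 rose and 2 fell in keratocyte cultures. Of all probe sets 17.5% rose and 15.5% fell in myofibroblast, 18.4% and 12.3% in fibroblast, and 21.8% and 9.25% in keratocyte cultures. Anxa2, the direct partner of S100a10, averaged 3887 ± 240 in myofibroblast, 3657 ± 509 in fibroblast and 4169 ± 144 in keratocyte cultures, against 4787 ± 489 in adult stroma (SD, n = 3 each). It fell by 0.39 in fibroblast cultures (limma adjusted p = 0.0242) and did not pass at -0.30 in myofibroblast cultures (adjusted p = 0.0771) or at -0.19 in keratocyte cultures (adjusted p = 0.251). The intervals for Anxa2 and S100a10 did not overlap in any of the 3 comparisons, and the difference between the genes was not itself tested.

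Other annexins moved further. Anxa3 had a log2 difference of 3.19, 3.29 and 3.41 in myofibroblast, fibroblast and keratocyte cultures, with means of 825, 887 and 969.9 against 77.6 in adult stroma, which is below background. Anxa5 (0.70, 0.53 and 0.76) and Anxa6 (0.71, 0.57 and 0.70) also rose. Anxa7 fell to means of 82.7, 86.3 and 96.9, all below background, against 189 in adult stroma. Anxa8, an annexin of stratified epithelia, fell to 443 in myofibroblast, 93.8 in fibroblast and 54.6 in keratocyte cultures, against 2317 in adult stroma. It was the 1 annexin that passed between myofibroblast and fibroblast cultures, with a log2 difference of 2.07 (limma adjusted p = 0.000101). Its means in fibroblast and keratocyte cultures were below background, so differences against them are bounds. Anxa1, a phospholipid-binding anti-inflammatory annexin that pairs with S100A11, fell by 0.68 in myofibroblast cultures (limma adjusted p = 0.0252).

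**Figure D3:**
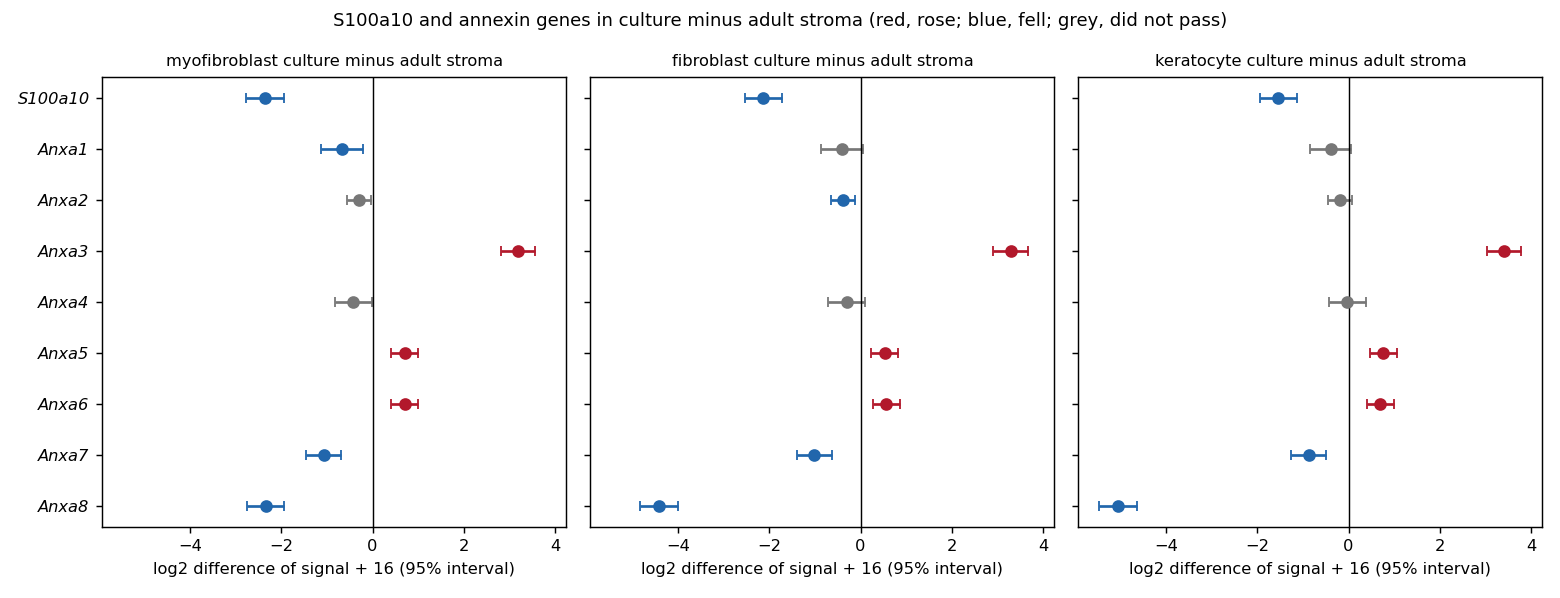
Log2 differences of signal + 16 with 95% intervals (horizontal axis) of S100a10 and 8 annexin genes (rows), in myofibroblast, fibroblast and keratocyte cultures minus adult stroma (panels). Red genes rose, blue genes fell and grey genes did not pass; S100a10 lies at -2.36, -2.13 and -1.54 while Anxa2 lies at -0.30, -0.39 and -0.19.

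The probe set that S100a11 shares with Gm12854 and S100a11-ps cannot be assigned to S100a11 alone. It read 2338, 1740 and 2241 in myofibroblast cultures, 2663, 2046 and 2442 in fibroblast cultures and 2205, 2156 and 2479 in keratocyte cultures. Adult stroma had 3093, 3381 and 3492, and P10 stroma 2742 and 3133. All adult arrays were above all culture arrays. The shared probe set fell by 0.66 in myofibroblast (limma adjusted p = 0.00236), by 0.48 in fibroblast (adjusted p = 0.0184) and by 0.54 in keratocyte cultures (adjusted p = 0.00951).

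S100a6, calcyclin, was among the brightest probe sets of every array. It had 5748, 5223 and 6173 in myofibroblast cultures, 7146, 6411 and 6925 in fibroblast cultures and 5886, 6185 and 6223 in keratocyte cultures. Adult stroma had 6225, 6315 and 6957, and P10 stroma 5937 and 6276. The groups lay close together, with a coefficient of variation of 8.09% over all 14 arrays. Myofibroblast arrays were all below fibroblast arrays, and groups next to each other in mean signal overlapped. The interval of the log2 difference from adult stroma was -0.39 to 0.02 for myofibroblast (limma adjusted p = 0.149), -0.13 to 0.27 for fibroblast (adjusted p = 0.606) and -0.29 to 0.11 for keratocyte cultures (adjusted p = 0.507). S100a6 was the brightest probe set other than controls on 5 arrays and ranked no lower than 12 on any. The highest signal of any probe set was 6554 to 7725 per array, and whether signals this high still follow the RNA amount was not tested. Its partner Cacybp, the calcyclin-binding protein, rose by 0.79 in keratocyte cultures, to a mean of 283 against 156 in adult stroma (limma adjusted p = 0.0385).

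S100a9 had a pattern of its own. Its signals were 401.3, 478.5 and 464.8 in myofibroblast cultures, 372.3, 210.8 and 287.7 in fibroblast cultures and 268.4, 107.5 and 250.8 in keratocyte cultures. Adult stroma had 117.0, 373.6 and 128.4, and P10 stroma 566.6 and 455.4. The second adult array stood well above the other adult arrays, which were below background. Myofibroblast cultures rose against adult stroma by a log2 difference of 1.24 (SE 0.384, limma adjusted p = 0.0228), with all 3 arrays above all adult ones. That call was lost on leaving out adult array 1 (adjusted p = 0.107), adult array 3 (0.0915), myofibroblast array 2 (0.0571) or myofibroblast array 3 (0.0607). The differences of 0.61 in fibroblast (adjusted p = 0.252) and 0.11 in keratocyte cultures (adjusted p = 0.864) did not pass. Without adult array 2 the fibroblast difference passed (limma adjusted p = 0.0185).

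Between adult and P10 stroma none of the 7 tested genes passed, where 0.453% of all probe sets rose and 3.26% fell; 2 genes, S100a9 and S100a10, had an unadjusted limma p below 0.05. Adult stroma averaged 206 ± 145 for S100a9 (n = 3), against 511 ± 78.6 in P10 stroma (SD, n = 2), without overlap. Of 7 pigment cell markers 4 fell in the same comparison, with a median log2 difference of -1.42. Their sum was 1224 to 1262 in adult stroma and 2328 to 5738 in P10 stroma. Of 16 fibroblast and myofibroblast markers 7 fell and 1 rose, with a median of -1.13. Of 26 epithelial markers 4 fell and 1 rose, with a median of 0.04. The part of these lists was not tested. The S100a9 log2 difference of -1.42 (95% interval -2.34 to -0.50) had an adjusted p of 0.091, which became 0.00941 at -1.92 without adult array 2. S100a10 differed by 0.55 (95% interval 0.09 to 1.01, limma adjusted p = 0.221) and passed after quantile normalization (0.041) and with array quality weights (0.00702). The median over all probe sets in this comparison was -0.12 as deposited and 0.03 after quantile normalization.

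S100a8, the calprotectin partner of S100a9, stayed between 56.4 and 107.9 and below background on all 14 arrays, so no fold is given. It passed in none of the 6 comparisons. Neutrophil markers differed among themselves. Ltf averaged 198 in adult stroma against 61.9 in myofibroblast cultures and 86.6 in P10 stroma, opposite in direction to S100a9. Lcn2 averaged 905 in keratocyte cultures and was below background by its mean in every other group, with 37.8 in myofibroblast cultures and 16.7 in P10 stroma. Csf3r, the receptor of granulocyte colony-stimulating factor, averaged 778 in myofibroblast, 639 in fibroblast and 545 in keratocyte cultures, 457 in adult stroma and 728 in P10 stroma, and rose in myofibroblast cultures against adult stroma (log2 difference 0.76, limma adjusted p = 0.0037). Ctsg, the granule protease cathepsin G, averaged 1085, 1291 and 628 in the 3 kinds of culture against 13.7 in adult stroma and rose in all of them (limma adjusted p = 0.0317, 0.00314 and 0.0118), although the myofibroblast arrays overlapped with adult ones. Elane (at most 103.6) and Cxcr2 (at most 23.7) were below background throughout, Mpo averaged 284 in myofibroblast cultures and 514 in adult stroma, and Ngp had group means of 363 to 504. Of 14 neutrophil markers tested, 2 rose and 3 fell in myofibroblast cultures against adult stroma, and 1 rose between adult and P10 stroma. Of all probe sets 17.5% rose and 15.5% fell in the first comparison, and 0.453% rose and 3.26% fell in the second. The summed signal of the neutrophil markers was 2996 to 4121 in myofibroblast cultures, 2544 to 3093 in adult stroma and 3626 to 3677 in P10 stroma. Their part in the S100a9 values was not tested.

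S100a1 was faint. Its brightest probe set read 80.6, 94.3 and 158.0 in myofibroblast cultures, 130.8, 112.9 and 288.9 in fibroblast cultures and 184.5, 148.0 and 211.3 in keratocyte cultures, against 71.4, 126.8 and 64.8 in adult stroma and 78.6 and 84.3 in P10 stroma. All 5 stroma arrays were below background and all 3 keratocyte arrays above it. The rise of 0.96 in keratocyte cultures passed (SE 0.317, limma adjusted p = 0.0322), but not after quantile normalization (0.0581) or centring each array on its median (0.0687), nor without adult array 1 (0.103), adult array 3 (0.111), keratocyte array 1 (0.0824) or keratocyte array 3 (0.115). The fibroblast difference of 0.84 did not pass (limma adjusted p = 0.0594), but passed without adult array 2 (0.0235) or fibroblast array 2 (0.0262). The other 2 probe sets of the gene never exceeded 70.3.

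S100b read 7.06 to 39.9 and was below background on every array, with its highest values, 34.2 to 39.9, in keratocyte cultures. Sox10, a Schwann cell and neural crest factor, averaged 443 in myofibroblast, 408 in fibroblast and 474 in keratocyte cultures, against 133 in adult stroma and 171 in P10 stroma. Mbp, the myelin basic protein gene, fell to 67.5, 78.8 and 83.7 in the same cultures, all below background, against 273 in adult stroma. Of 9 Schwann cell and nerve markers tested, 3 rose in myofibroblast, 4 in fibroblast and 4 in keratocyte cultures, and 1 fell in each. The shares of all probe sets that rose and fell were 17.5% and 15.5%, 18.4% and 12.3%, and 21.8% and 9.25%. The 5 other S100 genes with probe sets (S100a3, S100a5, S100a14, S100a16 and S100g) passed in no comparison by the probe set that represents each, S100a16 being too faint to be tested. A second S100a3 probe set, below background on all arrays, fell in myofibroblast and keratocyte cultures.

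Among the cultures, differing in serum and TGF-beta 1, few differences of S100 genes passed. None of the 7 passed between fibroblast and keratocyte cultures, where 0.193% of all probe sets rose and 1.18% fell. None passed between myofibroblast and fibroblast cultures in the unpaired fit either, where 0.289% rose and 0.781% fell. At an unadjusted limma p below 0.05 there were 2 genes in the first comparison (S100a4 and S100a10) and 2 in the second (S100a4 and S100a6). S100a10 was lower in fibroblast than keratocyte cultures by 0.59 (SE 0.191, limma adjusted p = 0.225).

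Myofibroblast and fibroblast arrays of the same number deviated together from their group means (correlations 0.623, 0.682 and 0.533 over all probe sets), so this comparison was also read in pairs. S100a4 was 1839 against 3405, 1590 against 2858 and 3359 against 4226, lower in the myofibroblast culture of all 3 pairs. With the replicate number as a block it fell by 0.68 (SE 0.15, limma adjusted p = 0.0299), against an adjusted p of 0.335 without the block. Without myofibroblast array 3 and without the block the difference was -1.01 (adjusted p = 0.033). In the fit with the block 0.752% of all probe sets rose and 1.69% fell, and S100a4 was the 1 gene of the 7 that passed.

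S100a13 was lower in myofibroblast cultures of all 3 pairs, at 828.6 against 1218, 417.2 against 633.3 and 1097 against 1691. Its difference of -0.58 had an adjusted p of 0.0526 in the limma fit with the block, and its second probe set passed there at -0.72 (adjusted p = 0.019), while the other tested probe set gave -0.12 (adjusted p = 0.89). S100a6 was lower in all 3 pairs by 0.31, 0.29 and 0.17 log2 units (limma adjusted p = 0.197 with the block). S100a9 was higher in all 3 myofibroblast cultures, by 0.10, 1.12 and 0.66 (limma adjusted p = 0.625 with the block). S100a10 was lower in 2 pairs and higher in 1.

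**Figure D4:**
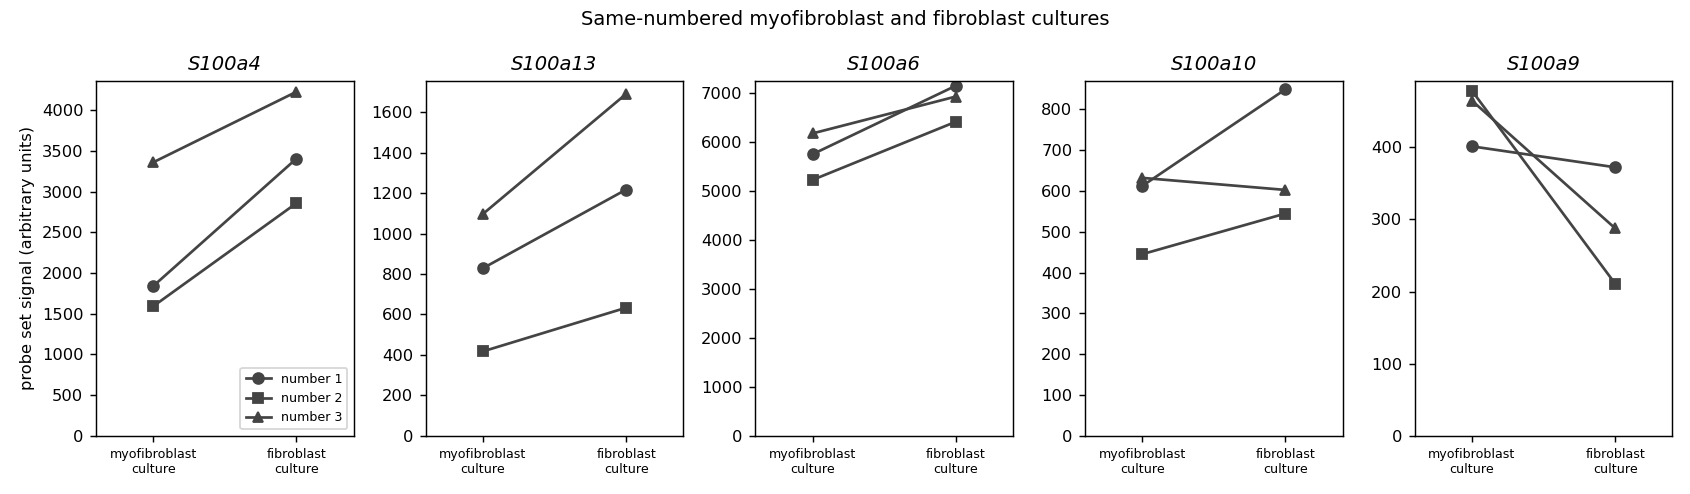
Signals (vertical axis, arbitrary units, a scale per panel) of 5 S100 genes in the myofibroblast culture (left) and the fibroblast culture (right) of each replicate number. Lines join arrays of the same number; S100a4, S100a13 and S100a6 are lower and S100a9 is higher in the myofibroblast culture of all 3 pairs.

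Receptors and targets of S100 proteins were measured by 13 genes that passed the filter. Of these, 1 rose and 3 fell in myofibroblast, 2 rose and 3 fell in fibroblast, and 3 rose and 2 fell in keratocyte cultures against adult stroma. These counts stand beside 17.5% and 15.5%, 18.4% and 12.3%, and 21.8% and 9.25% of all probe sets that rose and fell, and they do not set the list apart. Ahnak, a giant scaffold protein bound by the S100a10 and annexin A2 complex, fell by 1.31 in myofibroblast (mean 1286 against 3131, limma adjusted p = 0.000472) and by 0.77 in fibroblast cultures (mean 1882, adjusted p = 0.0187). Plau, the urokinase plasminogen activator, rose by 1.32 in fibroblast (mean 431 against 141) and 1.55 in keratocyte cultures (mean 454). Fgf1, whose release S100a13 assists, rose by 0.93 in myofibroblast cultures, to 145 against 77.2 in adult stroma, the second below background. Between fibroblast and keratocyte cultures Ndrg1 alone fell, and none passed between myofibroblast and fibroblast cultures or between adult and P10 stroma.

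Of 16 calcium-binding proteins with EF-hands outside the family, 6 rose and 4 fell in myofibroblast, 6 rose and 3 fell in fibroblast, and 5 rose and 3 fell in keratocyte cultures, and the rest did not pass. The background shares that rose and fell were 17.5% and 15.5%, 18.4% and 12.3%, and 21.8% and 9.25%. The counts of the list lie above these shares in both directions. The list was chosen with earlier results of these data known, so nothing is read from these counts. Actn1 had the largest change of the list, a rise of 4.23, 4.05 and 4.57. Its means were 2113, 1859 and 2663 against 96.7 in adult stroma, which is below background. Calu, the endoplasmic reticulum protein calumenin, rose by 2.55, 2.28 and 2.35, with means of 1536, 1259 and 1294 against 241 in adult stroma. The calpain subunits were split: Capn2 rose to means of 345, 348 and 444 against 108 in adult stroma, the last below background, and Capn1 fell by 1.95, 2.03 and 1.86. Actn1 and Sparc fell in adult against P10 stroma.

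The members' patterns were set side by side as Pearson correlations of log2(signal + 16) over the 14 arrays, which share groups and scaling and are given as a description. S100a4 and S100a13 had r = 0.942, S100a4 and S100a10 -0.887, S100a10 and S100a13 -0.771, and S100a1 and S100a13 0.768. The neighbours S100a4 and S100a6 had r = 0.030, with S100a6 near the top of the signal range. The calprotectin pair S100a8 and S100a9 had r = -0.342, with S100a8 within background. Among 7429 genes, those most like S100a4 were Emp3 (0.979), Tspan4 (0.978) and Mgp (0.978), the last encoding matrix Gla protein. Those most like S100a10 were Dguok (0.995), Nelfa (0.986) and Ablim1 (0.978), and those most like S100a13 were Ap3s1 (0.975), Crat (0.969) and Adk (0.968). For S100a9 the nearest reached only 0.861 (Ankrd17), for S100a1 0.878 (Cyp4v3) and for S100a6 0.795 (Slc10a3).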

How the data were processed

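RNA of mouse corneal stroma and of stromal cell cultures was measured on 14 one-colour Affymetrix arrays. Per the labels' protocols, targets were made from 5 µg of total RNA and the authors scaled the signal of all probe sets to a target intensity of 150 with Microarray Suite 5.0. The deposited intensity values are linear, with many at a floor of 1 (99 to 359 per array), so no background correction or normalization was added. The scan settings are not given in the sources used here. The number of arrays limits the precision.

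Probe sets were named from the platform annotation. Of 12422 probe sets other than 66 controls, 10833 had 1 symbol, 396 several and 1193 none. Signals entered as log2(signal + 16), and the added 16 understates changes of faint genes. Probe sets with a mean of 50 or more in at least 1 group were kept (10370). limma 3.58.1 (R 4.3.3; lmFit and eBayes with trend, two-sided) fitted 5 group means over all 14 arrays. A gene is represented by its probe set of highest mean. The rule named all 9 genes and the 3 genes most correlated with each. Of these, 1 to 3 are given for S100a1, S100a4, S100a6, S100a9, S100a10 and S100a13. None are given for S100a8 and S100b, which were below background, and S100a11 had no probe set of its own to correlate. On simulated data of 200 changed probe sets, 43% to 65% of log2 changes of 1 and 90% to 97% of log2 changes of 2 were recovered per comparison. There were 3 to 11 false calls per comparison. The simulated arrays varied independently, unlike the same-numbered myofibroblast and fibroblast arrays. Replicate arrays correlated at 0.910 to 0.987, and none were identical. Same replicate numbers came from the labels, and their pairing was checked by correlating deviations from group means: all 3 pairs exceeded 0.1 only for myofibroblast and fibroblast cultures. Alternatives were other scalings, filters, added constants, variance settings, array weights, a replicate block, other probe sets and leaving out each array. Members and gene lists were chosen with earlier results of these data known. S100a11 alone and proteins were not analysed here.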

Additional observations from a re-analysis of the deposited data

How the results depend on the processing

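Of the single-gene differences, 540 settings kept their direction and side of the threshold, 13 lost the call, 13 gained one and 28 changed sign, none of which passed with the changed sign. Array weights brought S100a9 past the threshold in keratocyte (adjusted p = 0.00281) and fibroblast cultures against adult stroma (0.0079) and in adult against P10 stroma (0.000155). The number of genes past the threshold against adult stroma was 4 in keratocyte and in myofibroblast cultures. Over the 16 alternatives each it ran from 3 to 6 in keratocyte and from 3 to 4 in myofibroblast cultures. For adult minus P10 stroma the count of 0 became 1 after quantile normalization and 2 with array quality weights, with 0 to 1 on leaving out single arrays (1 without adult array 2). For fibroblast cultures minus adult stroma the count of 3 became 6 with array weights, and 3 to 5 on leaving out single arrays (5 without adult array 2). For fibroblast minus keratocyte cultures the count of 0 became 1 with array weights. For myofibroblast minus fibroblast cultures the count of 0 became 1 with the replicate block (S100a4, which the pairing brought past the threshold), and was 0 to 1 on leaving out single arrays (1 without myofibroblast array 3). The block moved no other count by over 1.5 times.

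Signs that changed belonged to small or faint differences. For adult minus P10 stroma, S100a1 was -0.12 with array weights, -0.44 by its second probe set and -0.21 to 0.20 on leaving out single arrays, S100a4 was -0.082 with array weights and -0.10 to 0.089 on leaving out arrays, S100a10 was -0.46 by its faint second probe set, and S100a13 was 0.29 and 0.38 by its other probe sets. For keratocyte cultures minus adult stroma, S100a6 was 0.017 after quantile normalization, and S100a9 was -0.023 after it, -0.065 after centring and -0.17 to 0.61 on leaving out arrays. The faint second probe set of S100a10 gave 0.26, 0.019 and 0.29 for keratocyte, fibroblast and myofibroblast cultures minus adult stroma, and 0.27 for myofibroblast minus fibroblast cultures. The second probe set of S100a1 gave -0.26, -0.20 and -0.17 for the same 3 culture comparisons, 0.063 for fibroblast minus keratocyte cultures (where leaving out arrays gave -0.51 to 0.11) and 0.024 for myofibroblast minus fibroblast cultures. The causes were not tested. Signals of S100a8, S100b and most of S100a1 near control spots limit what these arrays can show.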
